A study of Rattus norvegicus with 36 samples.

Results

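The accumbens transcriptome of rats that received cocaine and were labelled Non Vulnerable was compared with that of rats that received only saline. The groups were taken from the phenotype labels, and the 4 technical replicates of each rat were summed, which gave 3 Non Vulnerable and 3 Saline rats, 6 of the 9 rats and 24 of the 36 libraries of the series. Genes with a mean of at least 1 CPM (the count scaled to a common library size, not to gene length) over these 6 rats were kept, 13685 of 31546 gene IDs. All rats were Sprague-Dawley and 8 weeks old. Non Vulnerable rats carry the label of 4 cocaine injections, at 20 mg/kg per the protocol text, and Saline rats that of 4 injections of physiological serum in the same alternating visits to the conditioning compartments. The remaining 3 rats, labelled Vulnerable, had the same cocaine schedule. Only the cocaine groups carry a phenotype split, and for this comparison the drug and the split cannot be told apart. The tissue label names the nucleus accumbens and the extraction text also names the caudate putamen, so the share of dorsal striatum in a sample is not known.

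The nucleus accumbens is the ventral part of the striatum, made up mostly of GABAergic projection neurons that carry dopamine receptors and receive dopamine from the ventral midbrain. Cocaine blocks the reuptake of dopamine and so prolongs its action on these cells. Conditioned place preference pairs the drug with one compartment and later measures the time an animal chooses to spend there; the series concerns rats that came to show this preference and rats that did not, and the sample labels do not say which of these the phenotype names stand for.

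The deposited tables identify genes by Ensembl ID alone, and 0 of the 31546 IDs could be paired with a symbol in the reference table used here. The results are therefore given for groups of genes, with 2 IDs that rose and 2 that fell. Markers of accumbens neurons, glia, vessels or neighbouring tissue could not be read, so the tissue label was not checked against them. In these bulk samples, fewer cells of a type and less RNA per cell cannot be told apart.

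Total counts ran from 41213813 to 50210925 per rat, with 19331 to 19678 gene IDs detected in each. Within rats, technical replicates were as alike as counting noise allows (chi-square per degree of freedom of 1.00 to 1.02). One library set stood apart before any test. In Non Vulnerable rat 1 the 10 most counted genes took 18.2% of all counts, against 10.7% to 13.3% in the other 5 rats, and after TMM scaling the level of each of these 10 genes was 1.48 to 1.965 times its mean in the other 5 rats. As a plain share of counts, 2 of the 10 were higher in Saline rat 1 than in Non Vulnerable rat 1. None of the 10 was called between the groups (edgeR adjusted p of 0.390 to 0.709), with log2 fold changes of 0.21 to 0.40. The value of each gene in Non Vulnerable rat 1 is read as a share of what remains, after TMM scaling with a factor of 0.919 for this rat and 0.997 to 1.03 for the others.

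Non Vulnerable rats 2 and 3 lay together and far from every Saline rat, whereas Non Vulnerable rat 1 lay near the Saline rats. In a principal component analysis of log2 CPM, rats 2 and 3 scored 31.8 and 37.1 on the leading component (47.05% of the variance), and Non Vulnerable rat 1 scored -10.8. Saline rats 1 to 3 scored -23.5, -23.7 and -10.9, so Non Vulnerable rat 1 and Saline rat 3 had almost the same score. The second component, with 19.8%, set these 2 rats apart, at 23.3 and -31.2.

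**Figure D1:**
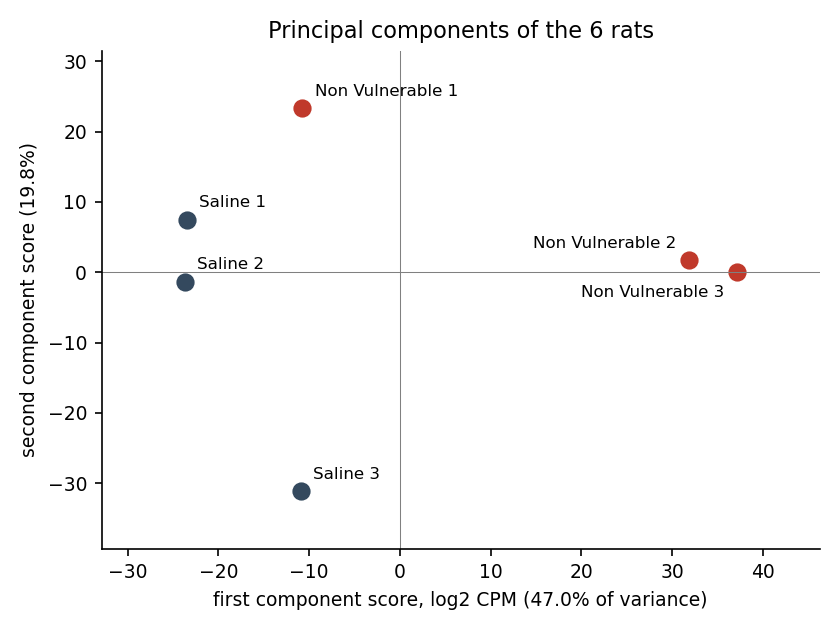
Scores of the 6 rats on principal components 1 (horizontal) and 2 (vertical) of log2 CPM over 13685 genes; each point is a rat, in red for Non Vulnerable and dark grey for Saline. Non Vulnerable rats 2 and 3 sit at the right, and Non Vulnerable rat 1 shares the left side with the Saline rats.

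Distances between single rats gave the same arrangement. The root mean square log2 difference was 0.383 between Non Vulnerable rats 2 and 3, and 0.493 and 0.548 between rat 1 and each of these. Non Vulnerable rat 1 was closer to all 3 Saline rats, at 0.388, 0.407 and 0.473. The 9 pairs across groups averaged 0.508 ± 0.0698 (SD), the 3 Non Vulnerable pairs 0.475 ± 0.0841 and the 3 Saline pairs 0.376 ± 0.0751, and these ranges overlapped. The biological coefficient of variation, the relative spread between rats beyond counting noise, was 19.8% in Non Vulnerable and 15.6% in Saline rats. Among Non Vulnerable rats it was 12.8% for rats 2 and 3 alone, against 20.1% and 23.9% for the pairs with rat 1. Saline rats also held an unlike pair, with 9.79% for rats 1 and 2 and 18.8% and 16.3% for the pairs with rat 3. The SD of log2 CPM was larger among Non Vulnerable than among Saline rats for 58.1% of genes.

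The comparison of Non Vulnerable with Saline rats asked how the accumbens of cocaine-treated rats with this phenotype differed from that of rats that never received the drug. Of the 13685 genes tested, 1304 (9.53%) were called at an adjusted p under 0.05 (edgeR quasi-likelihood test, Benjamini-Hochberg), 973 lower (7.11%) and 331 higher (2.42%) in Non Vulnerable rats. Lower genes thus made up 74.6% of the calls, although 51.7% of all genes tested had a positive log2 fold change and the median over all genes was 0.015. The changes were small. The median absolute log2 fold change of called genes was 0.48, or 1.40-fold, and 68.1% of them changed by less than 1.5-fold. Called genes that fell did so by a median of 0.53 on the log2 scale, and those that rose by 0.40. The median SE was 0.0881 among called genes and 0.124 over all genes.

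With all 6 rats in the fit, the excess of lower genes was larger among bigger changes. At 1.5-fold or more, 388 genes (2.84%) were called lower and 28 (0.205%) higher. At 2-fold or more, 61 (0.446%) were lower and 5 (0.0365%) higher, and no called gene changed by 4-fold. The step from 1.5-fold to 2-fold alone held 327 lower and 23 higher genes. All 3 Non Vulnerable rats lay on one side of all 3 Saline rats for 4996 genes (36.5% of those tested), of which 2713 were lower and 2283 higher. All 1304 called genes were among them, as genes picked on the same rats would tend to be. With 3 rats against 3, p = 0.1 is the smallest value that an exact two-sided permutation test can give for one gene.

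**Figure D2:**
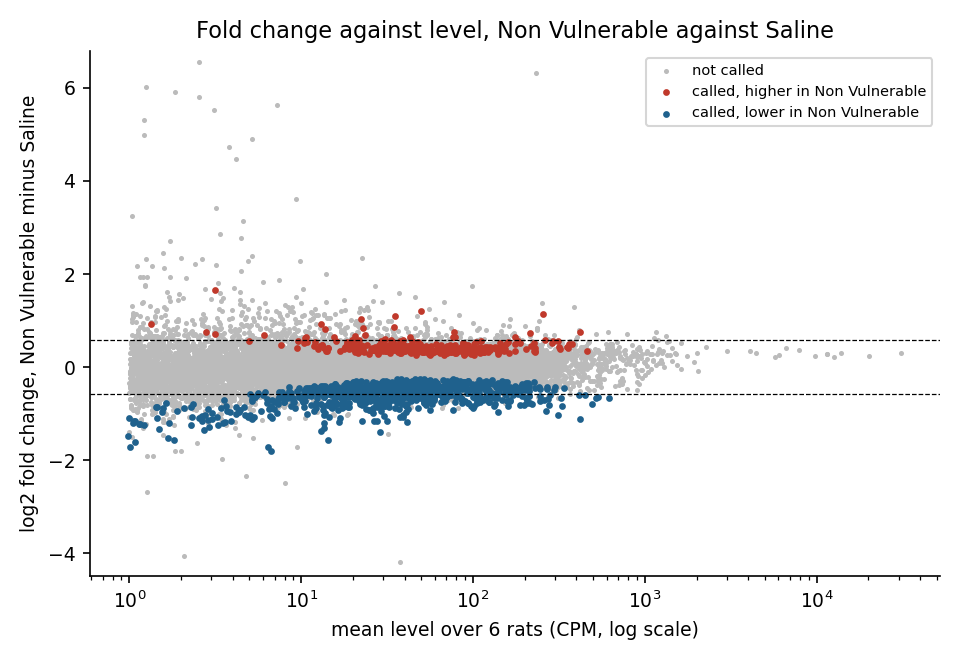
Log2 fold change of Non Vulnerable over Saline rats (vertical) against the mean level over 6 rats in CPM (horizontal, log scale), a point per gene; dashed lines mark 1.5-fold. The 973 genes called lower reach further from 0 than the 331 called higher, and the grey points above a log2 fold change of 2 were not called.

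This balance of directions changed without Non Vulnerable rat 1 and in some of the other fits. Without that rat, 1760 genes were called lower and 1506 higher, and at 1.5-fold or more the counts were 719 and 558. At 2-fold or more the direction turned in that fit, with 138 genes called lower and 214 higher. With all 9 rats in the fit 1363 were lower and 1100 higher (2463 in all), and DESeq2 called 1748 lower and 1405 higher (3153 in all). Lower genes were then 53.9%, 55.3% and 55.4% of the calls. Among bigger changes, lower genes still outnumbered higher ones with all 9 rats and in DESeq2. With all 9 rats, 476 were lower and 122 higher at 1.5-fold or more, and 78 and 27 at 2-fold or more. DESeq2 called 560 lower and 221 higher at 1.5-fold or more, and 98 and 79 at 2-fold or more. Sample quality weights in limma voom were lowest for Non Vulnerable rat 1 (0.274) and highest for Non Vulnerable rat 2 (4.18) and Saline rat 2 (2.6). With these weights, lower genes were 47.8% of the calls (3179 lower, 3472 higher), and at 2-fold or more 181 were lower and 250 higher. Plain limma voom left the balance as it was in edgeR, with 75.65% lower. The scaling mattered less, with 71.6% lower under median-of-ratios scaling and 77.2% when the 10 most counted genes were left out of the scaling.

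In edgeR, whether any gene was called changed with the rat left out. With Non Vulnerable rat 2, Non Vulnerable rat 3, Saline rat 1 or Saline rat 2 left out, edgeR called 0 genes, while 2928, 3258, 3348 and 2678 genes had an unadjusted p under 0.05 and DESeq2 called 1326, 1686, 1727 and 1280. Without Saline rat 3 edgeR called 852 genes, 703 of them among the 1304. Without Non Vulnerable rat 1 it called 3266, which held 1267 of the 1304. No called gene changed the sign of its fold change in any of these 6 fits. That was all but fixed in advance, because the groups of rats did not overlap for any called gene. Each of these 6 fits rests on 2 rats against 3. Where edgeR called 0 genes, its smallest adjusted p ran from 0.0583 to 0.111.

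Calls were most frequent at intermediate count levels. CPM is not corrected for gene length, so these bands order genes by how many reads they gave, that is, by the precision of counting. From 20 to 100 CPM, 790 of 5832 genes (13.5%) were called, 569 lower and 221 higher. From 100 to 500 CPM it was 208 of 2006 (10.4%), 139 lower and 69 higher. From 5 to 20 CPM, 207 of 3334 genes were called lower and 36 higher. Weakly counted genes, from 1 to 5 CPM, gave 60 calls in 2322 (2.58%), of which 55 were lower, and their median SE was 0.252 against 0.0943 from 20 to 100 CPM. Below 500 CPM, the direction of the calls was most uneven in this weakest band, with 91.7% lower, and least from 100 to 500 CPM, with 66.8%.

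The most strongly counted genes behaved differently. Only 3 of the 191 genes at 500 CPM or more were called, all lower. Their median log2 fold change was 0.20, against 0.06 from 100 to 500 CPM and -0.06 from 1 to 5 CPM. These 191 genes held 31.0% of the counts in Non Vulnerable and 28.2% in Saline rats. The high shares of the most counted genes in Non Vulnerable rat 1 lie within this band, and their part in the result was not tested.

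**Figure D3:**
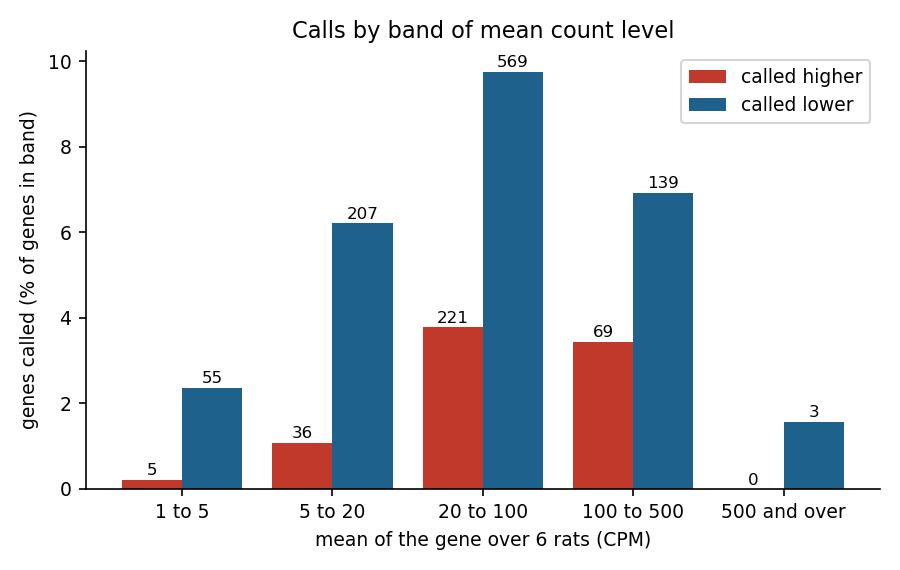
Share of genes called higher (red) or lower (blue) in Non Vulnerable rats, in % of the genes in each band of mean CPM over 6 rats; numbers above the bars are genes. Lower exceeds higher in every band, and the 20 to 100 CPM band holds the largest share, 569 lower and 221 higher genes.

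The largest fold changes belonged to genes that were not called, and in most of them 1 rat stood far above the rest. A log2 fold change of at least 2 toward Non Vulnerable rats, that is 4-fold, was fitted for 33 genes, none of them called. Non Vulnerable rat 2 had the highest level for 25 of the 33 and Non Vulnerable rat 3 for the other 8. Rat 2 alone held over 80% of the group's summed level for 21 genes. Added together, the 33 genes stood at 1861 CPM in Non Vulnerable rat 2, 156 in rat 3 and 25.6 in rat 1, against 20.7, 27.0 and 56.7 CPM in Saline rats 1 to 3. A single gene gave 1371 CPM of the sum in rat 2. Non Vulnerable rat 1 was thus within the Saline range for this sum, and rats 2 and 3 were above it. Without rat 2, 6 of the 33 still differed by 4-fold and their median log2 fold change was 0.43 in place of 2.85. In the opposite direction, 5 genes were at least 4-fold lower in Non Vulnerable rats, and Saline rat 3 had the highest level of all 5. These genes were chosen by their fold change, so the values describe them and test nothing.

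Of the called genes with non-overlapping groups, ENSRNOG00000012703 had the largest rise. It stood at 2.63, 6.50 and 5.23 CPM in Non Vulnerable rats 1 to 3, from 121, 322 and 219 counts, and at 1.80, 1.35 and 1.42 CPM in Saline rats 1 to 3, from 93, 57 and 65 counts. Non Vulnerable rat 1 was the lowest of its group, and still above all Saline rats. The means were 4.79 ± 1.98 and 1.52 ± 0.239 CPM (SD, n = 3), which is 3.14-fold (log2 fold change 1.65, SE 0.352, edgeR adjusted p = 0.0388). Its call was lost in limma voom (adjusted p = 0.0604) and without Non Vulnerable rat 2 or 3 or any one Saline rat (log2 fold changes of 1.36 to 1.79, edgeR adjusted p of 0.0774 to 0.164).

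The other rise belonged to a more strongly counted gene, ENSRNOG00000019584. Its level was 62.9, 67.2 and 79.2 CPM in Non Vulnerable rats and 34.2, 34.7 and 21.8 CPM in Saline rats, so each Non Vulnerable rat was well above the highest Saline rat. Means of 69.8 ± 8.45 and 30.2 ± 7.30 CPM (SD, n = 3) made it 2.31-fold higher (log2 fold change 1.21, SE 0.193, edgeR adjusted p = 0.0221). Non Vulnerable rat 1 was the lowest of its group here too.

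ENSRNOG00000002979 had the largest fall. It measured 2.84, 3.39 and 2.72 CPM in Non Vulnerable rats and 8.32, 15.9 and 6.94 CPM in Saline rats. The Non Vulnerable values were close to each other and the Saline values were not, with Saline rat 2 far above the other Saline rats. Group means were 2.99 ± 0.356 and 10.4 ± 4.84 CPM (SD, n = 3), 3.47-fold lower (log2 fold change -1.80, SE 0.331, edgeR adjusted p = 0.0288). Without Saline rat 2 the log2 fold change was -1.35 and the edgeR adjusted p 0.107.

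ENSRNOG00000042726 fell almost as far, with tighter Saline values. Non Vulnerable rats had 3.11, 3.88 and 1.94 CPM and Saline rats 10.7, 10.6 and 8.04 CPM, with a wide gap between the groups. The means of 2.97 ± 0.977 and 9.78 ± 1.51 CPM (SD, n = 3) lay 3.28-fold apart (log2 fold change -1.71, SE 0.271, edgeR adjusted p = 0.0221). For ENSRNOG00000019584 and both falls, the call ended without Non Vulnerable rat 2 or 3 or Saline rat 1 or 2. In those fits the log2 fold changes were 1.09 to 1.32 for ENSRNOG00000019584, -1.93 to -1.35 for ENSRNOG00000002979 and -1.95 to -1.50 for ENSRNOG00000042726.

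**Figure D4:**
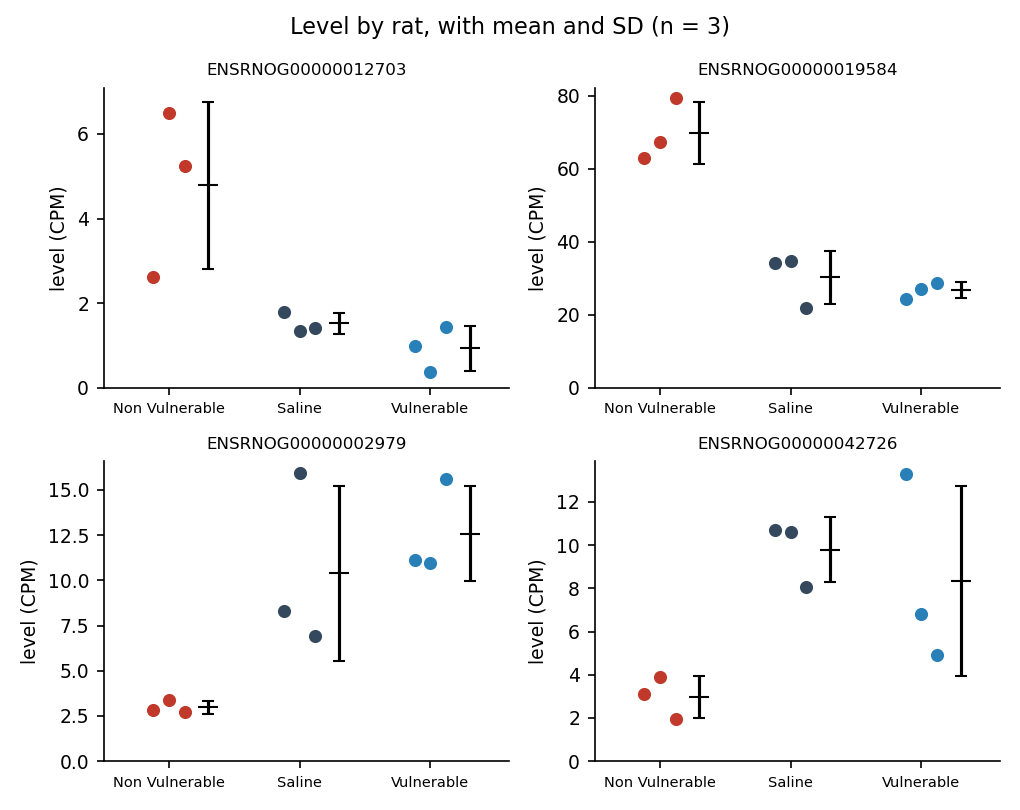
Level in CPM of the 4 gene IDs in each rat; points are rats, the bar beside each group is the mean with SD (n = 3), in red for Non Vulnerable, dark grey for Saline and blue for Vulnerable. Non Vulnerable rats lie above all other rats for the 2 IDs that rose and under them for the 2 that fell.

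Vulnerable rats, which received the same cocaine, were set beside these values in a fit over all 9 rats. The named IDs were chosen on the same Non Vulnerable values, which favours a difference from Vulnerable rats as well. ENSRNOG00000012703 was at 1.00, 0.373 and 1.44 CPM in Vulnerable rats 1 to 3, and Non Vulnerable exceeded Vulnerable rats by 2.37 on the log2 scale (SE 0.484, edgeR adjusted p = 0.00772). ENSRNOG00000019584 was at 24.3, 27.2 and 28.7 CPM, and Non Vulnerable rats were higher by 1.41 (log2; SE 0.186, edgeR adjusted p = 0.0015). The Vulnerable means of both, 0.937 ± 0.537 and 26.7 ± 2.22 CPM (SD, n = 3), were below the Saline means, by log2 fold changes of -0.71 (SE 0.478) and -0.20 (SE 0.184), which were not called (edgeR adjusted p of 0.879 and 0.905).

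For both IDs that fell, Non Vulnerable rats were below all Vulnerable rats as well. ENSRNOG00000002979 was at 11.1, 10.97 and 15.6 CPM in Vulnerable rats, and Non Vulnerable rats were lower, at -2.05 on the log2 scale (SE 0.316, edgeR adjusted p = 0.00266). ENSRNOG00000042726 was at 13.3, 6.83 and 4.91 CPM, with -1.46 on the log2 scale (SE 0.382, edgeR adjusted p = 0.0198) that lost its call without Non Vulnerable rat 3 (edgeR adjusted p = 0.0608). Over all genes, 4882 of the 13685 (35.7%) were called between Non Vulnerable and Vulnerable rats in that fit, so a call there is common. Leaving out Non Vulnerable rat 2 brought it to 2853, Non Vulnerable rat 3 to 3071, Vulnerable rat 2 to 2829 and Vulnerable rat 3 to 3068.

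The genes called against Saline as a whole were placed in each rat relative to the mean of the 3 Saline rats. For the 331 higher genes the median log2 difference was 0.38, 0.38 and 0.47 in Non Vulnerable rats 1 to 3. In Vulnerable rats 1 to 3 it was -0.04, -0.11 and -0.04. For the 973 lower genes it was -0.49, -0.56 and -0.51 in Non Vulnerable and 0.10, 0.18 and 0.09 in Vulnerable rats. All 3 Non Vulnerable rats, rat 1 included, showed about the same shift, as the choice of these genes on the same rats favours, while the medians of the Vulnerable rats lay slightly on the other side of the Saline mean. Both comparisons share the Saline rats, and no test was made of these gene sets in the Vulnerable rats. Gene by gene, edgeR called 0 of 13685 genes (0%) between Vulnerable and Saline rats in the fit over 9 rats, with 720 at an unadjusted p under 0.05 and a smallest adjusted p of 0.303.

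Leaving Non Vulnerable rat 1 out of the fit that chose the genes gave a view of that rat with its own values outside the test. Its values still entered the filter of 1 CPM and the scaling of the levels. For the 1506 genes then called higher, the median log2 difference from the Saline mean was 0.17 in rat 1, against 0.44 and 0.56 in rats 2 and 3. The lower quartile in rat 1 was -0.00372, so about 1 in 4 of these genes were at or below the Saline mean in it. For the 1760 genes then called lower, rat 1 had a median of -0.35, against -0.50 and -0.51 in rats 2 and 3. The median of rat 1 was thus on the same side of the Saline mean as those of rats 2 and 3 in both sets, smaller in both, and nearer to theirs among the lower genes. Rats 2 and 3 helped to choose these genes and rat 1 did not, which favours larger medians in rats 2 and 3. The smaller medians of rat 1 therefore do not show that its shift was smaller. The same Saline rats enter all 3 values and the choice of genes, which favours medians on the same side.

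**Figure D5:**
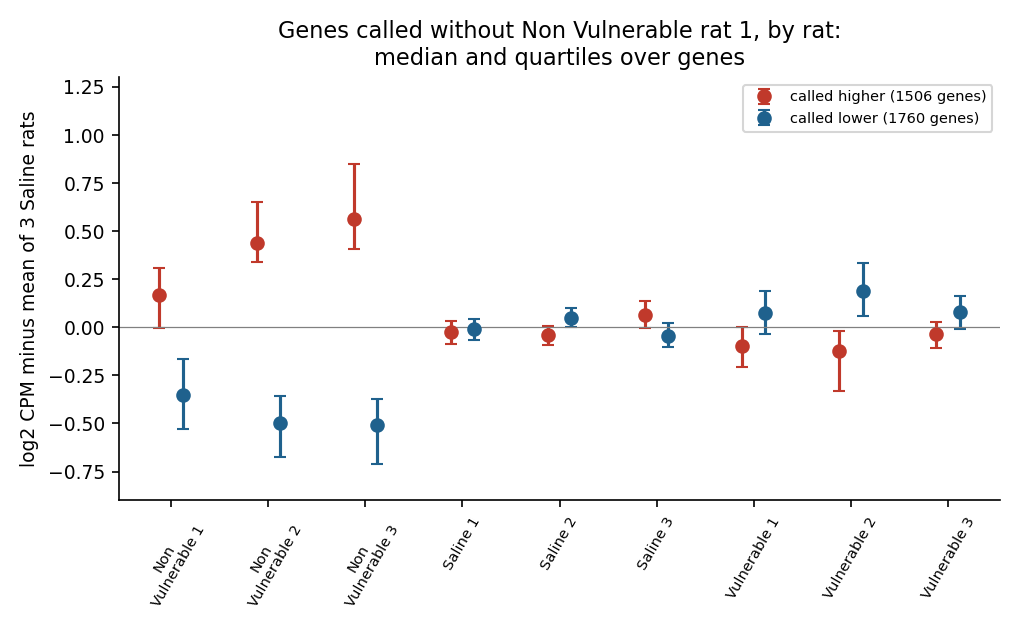
Log2 CPM minus the mean of the 3 Saline rats (vertical) in each of 9 rats (horizontal), for genes called without Non Vulnerable rat 1; points are medians and bars quartiles over 1506 higher (red) and 1760 lower (blue) genes. Non Vulnerable rat 1, at 0.17 and -0.35, lies between the Saline rats and Non Vulnerable rats 2 and 3. The genes were chosen on rats 2 and 3 and the Saline rats, which favours larger shifts in rats 2 and 3.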

How the data were processed

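RNA of the nucleus accumbens was sequenced from polyA-selected, strand-specific libraries, per the labels' protocols. Reads were handled with bcl2fastq 2.17.1.14, STAR and HTSeq 0.5.3, per the submitters' processing notes. Genome build, annotation and strand setting were not given in the sources used here; overlapping, antisense or near-identical genes could share reads. The deposited tables, one per library, hold raw counts of reads for each Ensembl gene ID. The reference table of assembly GRCr8 paired 0 IDs with a symbol, so the 36 gene lists and the cell type markers drawn up for the tissue could not be matched, and no sequences are shown.

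Counts were summed over the 4 technical replicates of a rat (no libraries were identical). Rats are separate animals as far as the labels' numbering tells. Genes with a mean of at least 1 CPM over the 6 rats held at least 99.86% of the counts. They were scaled with TMM and tested with edgeR 4.0.16 in R 4.3.3 (glmQLFit, robust) over these 6 rats, with 4 residual degrees of freedom. The test takes the same spread in both groups. Vulnerable rats entered a second fit over all 9 rats. For the named IDs, CPM of Vulnerable rats come from the scaling of all 9 rats, and those of other rats from that of the 6. SE came from the quasi-likelihood F statistic, and a prior count of 2 entered log2 CPM. Named IDs are the 2 of largest rise and the 2 of largest fall among called genes with non-overlapping groups. The genes, groups and lists were chosen with earlier results of these data known. Alternatives were DESeq2 1.42.0, limma 3.58.1 (voom), other scalings and filters, all 9 rats, the rat number as a block and each rat left out; sample quality weights and DESeq2 on the left-out sets were added after seeing the data. The procedure was tested on simulated data, with genes drawn independently and the same spread in both groups. No simulated rat was made to stand apart, so that test does not cover the effect of single rats.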

Additional observations from a re-analysis of the deposited data

Results flagged for a closer look

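The departure from Saline differed between both cocaine groups, by the test of Non Vulnerable against Vulnerable rats itself, in which the Saline level cancels. This held for 4882 genes (edgeR adjusted p under 0.05). Among the named IDs the log2 difference, Non Vulnerable minus Vulnerable, was 2.37 for ENSRNOG00000012703, 1.41 for ENSRNOG00000019584, -2.05 for ENSRNOG00000002979 and -1.46 for ENSRNOG00000042726, all 4 called, with the Non Vulnerable rats beyond all 3 Vulnerable rats in each case. These 4 IDs were chosen on the same Non Vulnerable values, which favours such differences.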

How the results depend on the processing

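Without one rat, edgeR called between 0 and 3266 genes between Non Vulnerable and Saline rats, 0 to 1506 higher and 0 to 1760 lower, and at 1.5-fold or more 0 to 558 higher and 0 to 719 lower. Each of these fits has fewer rats. With all rats kept, the count of 1304 became 3153 in DESeq2, with 1405 higher (221 by 1.5-fold) and 1748 lower (560 by 1.5-fold). With all 9 rats in the fit it was 2463, with 1100 higher (122 by 1.5-fold) and 1363 lower (476 by 1.5-fold). With sample quality weights in limma voom, an alternative chosen after seeing the data, it was 6651 (3472 higher, 764 by 1.5-fold; 3179 lower, 1025 by 1.5-fold). With the rat number as a replicate block, which leaves 2 residual degrees of freedom, edgeR called 0 genes (0 higher, 0 lower), 4535 had an unadjusted p under 0.05, and DESeq2 called 2243. The labels do not say whether rats of the same number share anything else. Their deviations from the group means correlated at 0.193, -0.00362 and 0.114, so not every pair was above 0.1. Non Vulnerable rats 1 and 3 correlated best with the Saline rat of their own number (highest other 0.127 and -0.0113) and rat 2 did not (0.207). The plain limma voom fit, other scalings and other filters gave 1033 to 1531 calls. Non Vulnerable against Vulnerable rats gave 2829 to 5591 calls without one rat and 3867 to 5882 with other settings (4991 with the block). No named ID changed direction under any alternative run, as their choice for groups that do not overlap against Saline favours. All 4 lost the call against Saline under the block (edgeR adjusted p of 0.0524 to 0.0733).

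Counting depth bears most on genes from 1 to 5 CPM, with a median of 111 counts per rat, against 2007 from 20 to 100 CPM and 34480 at 500 CPM or more. All calls against Saline rest on 3 rats a side.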
